A study of Arabidopsis thaliana with 60 samples.

Results

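The cysteine-rich receptor-like kinases (CRK) of Arabidopsis thaliana were followed in leaves that met a bacterial flagellin peptide, a bacterial effector, or both. The genes were taken by locus from a list of 41 CRK loci, and no measured value entered that rule. Of these, 40 had a row in the count table of 25036 genes, CRK33 (AT4G11490) was not analysed here, and 32 had enough counts to be among the 16763 genes tested. Leaves 7 to 9 of 4-week-old Col-0 plants, all with the mutations dde2, ein2, pad4 and sid2 and an estradiol-inducible AvrRpt2 transgene (Ed-AvrRpt2), were infiltrated 3 to 4 h after subjective dawn. The Mock solution held 0.1% ethanol, the flg22 solution held the peptide at 1 µM with no ethanol named, the estradiol solution (Ed) held 10 µM of the inducer and the Mock dose of ethanol, and the last (flg22+Ed) combined both. In each comparison of flg22 alone with another solution, an effect of ethanol thus cannot be told apart from that of the elicitors. Harvest was at 60, 120, 180 or 300 min, and untouched leaves of each arm were taken at 0 min. The 20 groups held 3 libraries each, 1 from each of 3 independent experiments, and each library pooled 2 leaves from each of 2 plants. The leaves were therefore 1 transgenic genotype impaired in jasmonate, ethylene, PAD4 and salicylate signalling in all groups, the controls included, and no wild type was measured.

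Most CRK proteins are plasma membrane receptor kinases, which was not checked here for each listed locus, CRK45 among them. Their outer part carries repeats of a cysteine-rich domain (DUF26) and their inner part is a protein kinase. Their ligands are mostly unknown. In leaves they are known for a part in immune signalling and in the response to reactive oxygen species. Several sit with the flagellin receptor FLS2, its partner BAK1 or the kinase BIK1, and many CRK genes are known to rise with salicylic acid in wild-type plants. AvrRpt2 is a protease of Pseudomonas syringae that is sensed inside the cell through the loss of RIN4 by the resistance protein RPS2, so that Ed starts effector-triggered immunity while flg22 starts pattern-triggered immunity.

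The W box, the DNA word bound by WRKY transcription factors, was common before the CRK genes. Searching for TTGACC or TTGACT on both strands in the 250 bases before the annotated gene start (RefSeq, TAIR10.1), 26 of 41 CRK promoters (63.4%) held at least 1 word and 11 (26.8%) held at least 2. Over 27443 protein-coding genes the shares were 28.4% and 6.18%. Windows that overlap another annotated gene were kept in both sets, for example those of CRK24, CRK29 and CRK34. Many CRK genes lie side by side, so their promoters may not be independent, and the difference in share was not tested. The 6 promoters below are examples: CRK11 has 4 words, CRK5 has 3, CRK6 and CRK37 have 2 each, and CRK45 and CRK13, which rose steeply, have none in this window. CRK17 also had 3, and all other promoters had 2 words or fewer. There were 2 in CRK14, CRK15, CRK16, CRK18, CRK24 and CRK31. There was 1 in CRK4, CRK8, CRK9, CRK20, CRK23, CRK25, CRK27, CRK29, CRK32, CRK34, CRK36, CRK38, CRK39, CRK41 and CRK42. CRK2, CRK3, CRK7, CRK10, CRK12, CRK19, CRK21, CRK22, CRK26, CRK28, CRK30, CRK33 and CRK40 had none. Each promoter shown is read 5′ to 3′ on the strand of the gene and ends at the base before its start. Capitals mark the W-box word, read on either strand.
CRK11 (chr4:12143859-12144108, minus strand): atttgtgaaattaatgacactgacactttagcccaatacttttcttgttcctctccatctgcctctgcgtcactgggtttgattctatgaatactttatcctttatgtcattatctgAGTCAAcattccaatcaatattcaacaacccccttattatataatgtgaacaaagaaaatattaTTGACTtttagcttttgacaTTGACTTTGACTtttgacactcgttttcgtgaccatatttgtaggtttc
CRK5 (chr4:12120221-12120470, minus strand): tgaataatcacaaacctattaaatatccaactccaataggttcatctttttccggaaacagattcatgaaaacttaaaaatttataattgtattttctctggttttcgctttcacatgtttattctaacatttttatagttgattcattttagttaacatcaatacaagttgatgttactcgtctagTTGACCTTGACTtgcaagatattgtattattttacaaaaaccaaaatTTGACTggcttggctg
CRK6 (chr4:12121119-12121368, plus strand): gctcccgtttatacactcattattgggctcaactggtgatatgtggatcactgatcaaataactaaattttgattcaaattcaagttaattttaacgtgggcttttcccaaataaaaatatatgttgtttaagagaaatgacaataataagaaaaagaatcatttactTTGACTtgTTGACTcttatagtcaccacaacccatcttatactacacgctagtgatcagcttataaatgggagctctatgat
CRK37 (chr4:2238120-2238369, plus strand): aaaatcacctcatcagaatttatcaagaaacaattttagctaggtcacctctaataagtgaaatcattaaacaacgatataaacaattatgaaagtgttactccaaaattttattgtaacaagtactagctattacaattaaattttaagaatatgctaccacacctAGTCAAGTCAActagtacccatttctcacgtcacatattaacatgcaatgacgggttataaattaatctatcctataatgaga
CRK45 (chr4:7147615-7147864, plus strand): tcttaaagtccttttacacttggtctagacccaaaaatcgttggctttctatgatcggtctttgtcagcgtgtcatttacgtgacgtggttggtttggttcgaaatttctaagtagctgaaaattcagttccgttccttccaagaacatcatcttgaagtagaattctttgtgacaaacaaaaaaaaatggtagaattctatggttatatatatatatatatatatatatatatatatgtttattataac
CRK13 (chr4:12151639-12151888, minus strand): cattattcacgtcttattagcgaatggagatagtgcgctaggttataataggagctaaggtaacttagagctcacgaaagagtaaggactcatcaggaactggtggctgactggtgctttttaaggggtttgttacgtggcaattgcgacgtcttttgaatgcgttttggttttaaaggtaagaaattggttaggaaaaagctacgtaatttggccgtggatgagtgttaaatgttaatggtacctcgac
In CRK11 the words began 133, 69, 49 and 43 bases before the start, and in CRK5 63, 57 and 16 bases before it. In CRK37 both words lay on the opposite strand, at 83 and 78 bases. A match describes these letters only, and binding was not measured.

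Transcript level was measured by Smart-3SEQ, which reads the 3′ ends of transcripts, and is given as CPM, the count scaled to the library total. Libraries held 1.46 to 4.67 M counts (median 3.52 M), so 3 counts corresponded to 0.642 to 2.06 CPM. Differences are log2 fold changes from edgeR's quasi-likelihood test over all 60 libraries, with ± giving the error worked back from the F statistic, and a gene passed when its p, adjusted by Benjamini and Hochberg over all genes tested, was under 0.05. These p-values measure the spread over 3 independent experiments. Shares of all genes, set beside counts of members, are at the adjusted threshold in the fit of all 60 libraries. Counts of members at an unadjusted p, from DESeq2 or from fits with libraries left out have no share of all genes beside them. Leaf identity was clear, since 4 of 4 mesophyll genes were abundant in each library (summed level 31184 to 38051 CPM in the Mock group at 180 min) and guard cell, epidermis and phloem genes were also detected. In bulk leaves, fewer cells of a type and less RNA per cell cannot be told apart. In experiment 2, the libraries labelled Mock 0 min, Mock 60 min, Mock 300 min and flg22 0 min went against their labels. LHY, a morning gene of the circadian clock, had 3.00, 325 and 1.44 CPM in the Mock group at 300 min (experiments 1 to 3). In the flg22 group at 0 min it had 274, 4.51 and 349 CPM. In the Mock group LHY was at 285, 100 and 376 CPM at 0 min and at 154, 240 and 140.5 CPM at 60 min. There WRKY18, a WRKY gene, was at 6.65, 362 and 16.4 CPM at 0 min and at 353, 7.26 and 368 CPM at 60 min. Whether libraries had been exchanged was not tested. Counts of CRK genes that moved by over 1.5 times without these 4 libraries, and calls of named genes that ended, are given both ways.

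In untouched leaves (12 libraries) CRK genes ranged from undetected to present in each library. Among the 12 are the libraries labelled Mock 0 min and flg22 0 min of experiment 2, which went against their labels. CRK42 (AT5G40380) had a median of 59.3 CPM, with a range of 16.7 to 83.6. CRK21 (AT4G23290) had a median of 49.5 CPM and CRK40 (AT4G04570) of 42.6 CPM. The steeply induced genes started near the limit of detection, with medians of 0 for CRK7, CRK20, CRK36, CRK37 and CRK39 and of 1.05 CPM for CRK45. The 8 genes that were measured but not tested were CRK8, CRK16, CRK23, CRK25, CRK26, CRK27, CRK30 and CRK32. CRK23 (AT4G23310) still reached 6.95, 2.38 and 2.61 CPM with Ed at 300 min, where the 3 Mock libraries were at 0. CRK32 (AT4G11480) reached 2.56, 2.04 and 2.29 CPM with flg22+Ed at 300 min, again with Mock at 0.

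The summed level of the CRK genes in Mock leaves was 486 ± 246 CPM (SD, n = 3) at 60 min and 303 ± 20.6 CPM at 300 min. At 60 min the Mock libraries were at 565, 210 and 683 CPM (experiments 1 to 3). The low one was among those that went against their labels. With flg22 the summed level was 1620 ± 203 CPM at 60 min and 2493 ± 366 CPM at 300 min. With Ed it was 624 ± 241 CPM at 60 min, 848 ± 308 CPM at 180 min and 2104 ± 766 CPM at 300 min. With flg22+Ed it was 3434 ± 190 CPM at 300 min. The flg22 libraries stood above the Mock libraries of the same time from 60 min on, whereas the Ed libraries did so at 180 and 300 min.

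**Figure D1:**
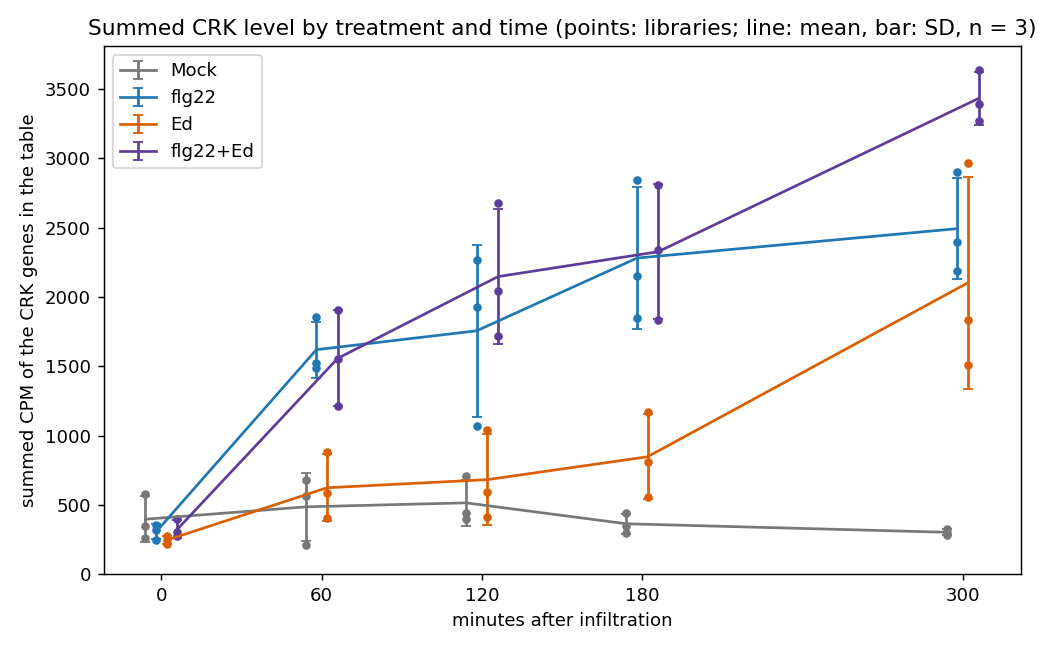
Summed level of the 40 CRK genes in the table, in CPM, against minutes after infiltration for the 4 treatments; points are libraries, lines join group means and bars are SD (n = 3). At 300 min the Mock libraries sit between 285 and 325 CPM and the flg22+Ed libraries between 3266 and 3640 CPM.

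flg22 raised CRK genes early and none fell past the threshold. At 60 min 15 tested members rose, with 6.45% of the tested genes higher and 3.39% lower. At 120 min 19 rose (7.43% higher, 2.8% lower in the whole table), at 180 min 24 (14% higher, 8.17% lower) and at 300 min 23 (19.2% higher, 20.9% lower). The median log2 difference over the 32 tested members was 2.07 at 60 min and 3.20 at 300 min, against -0.07 and -0.05 over all genes. With genes without a Mock count put at their lower bound, these medians were 1.89 and 3.20. At 300 min all 4 mesophyll genes fell with flg22, to a sum of 17365 to 25070 CPM, 1 of 3 epidermis genes and 1 of 5 phloem genes also fell, and 1 of 4 guard cell genes rose. Their part in the CRK differences was not tested. In all 24 members that rose at 180 min, the 3 flg22 libraries lay above the 3 Mock libraries. Having passed on these same libraries favours such a separation, so it adds no support. Its share over all genes was not counted. The counts at 60 and 120 min were less stable. At 60 min 9 members rose without the flg22 library of experiment 1, 6 without the Mock library of experiment 2 and 9 without the 4 libraries that went against their labels. The 6 that then missed the threshold were CRK5, CRK6, CRK9, CRK12, CRK13 and CRK18. At 300 min, without the 4 libraries, 25 rose with flg22, 25 with Ed and 25 with flg22+Ed. At 120 min 7 rose without the Mock library of experiment 1, 9 without that of experiment 2 and 9 without the flg22 library of experiment 1.

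**Figure D2:**
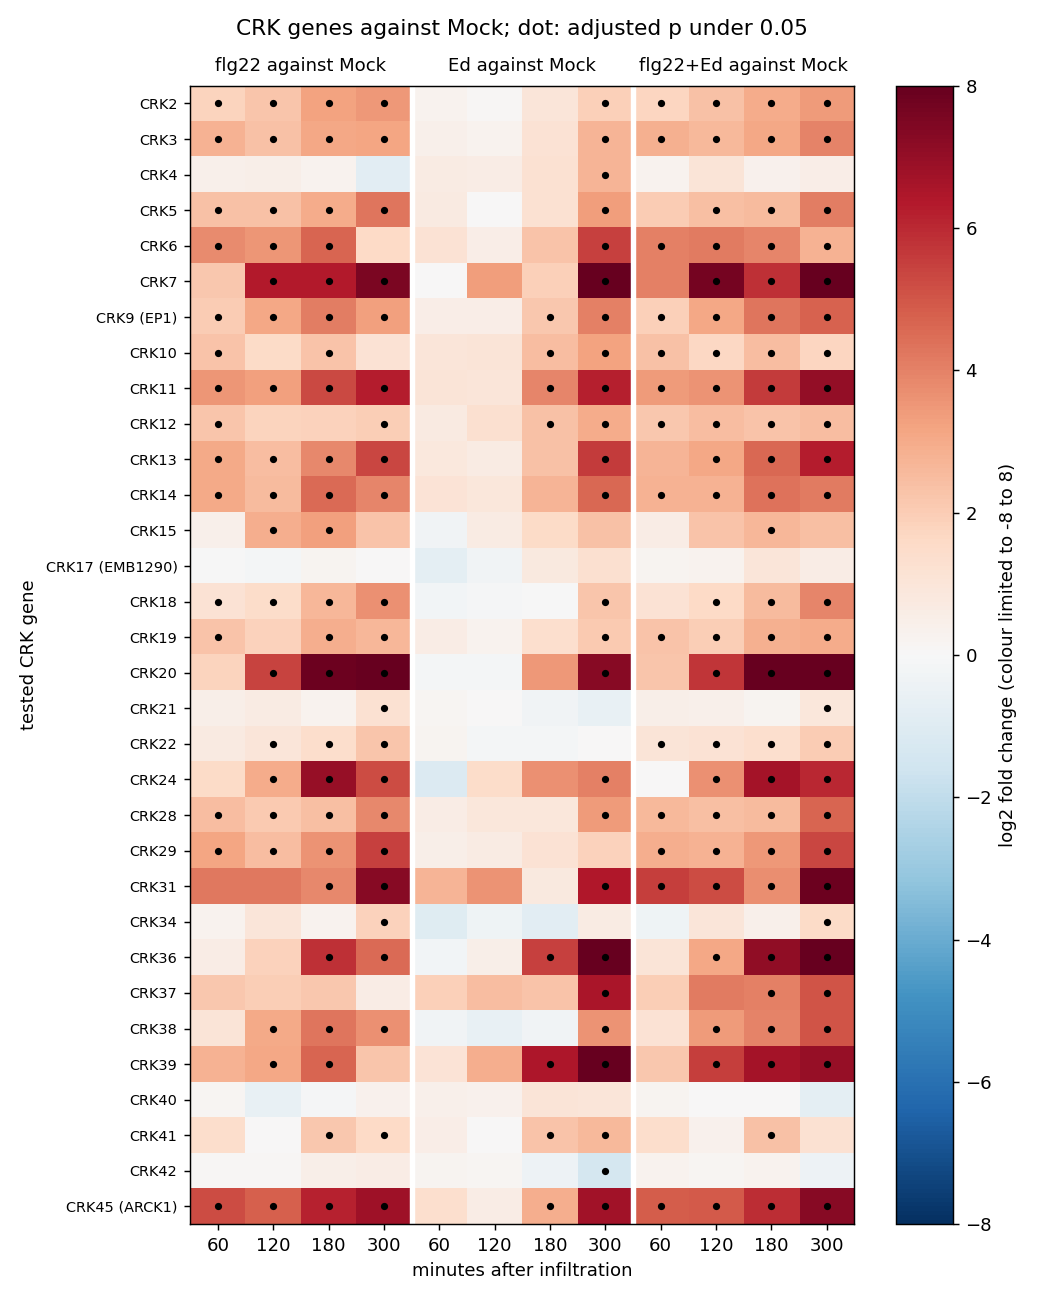
Log2 fold change (colour, limited to -8 to 8) of the 32 tested CRK genes against Mock, by treatment and minutes after infiltration; dots mark an adjusted p under 0.05. The flg22 columns carry dots from 60 min (15 genes), the Ed columns from 180 min (8 genes). For genes with no count in the Mock group the colour depends on the prior count.

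Among the genes known to act in flagellin signalling, CRK2 (AT1G70520), which is known to phosphorylate the NADPH oxidase RBOHD and to be needed for a full oxidative burst, was at 67.3, 11.4 and 90.9 CPM in Mock leaves at 60 min (experiments 1 to 3). With flg22 it was at 223, 161 and 142 CPM. The 3 flg22 libraries were above the Mock libraries, and the difference was 1.76 ± 0.46 (adjusted p = 0.0104, higher in 3 of 3 experiments). Without the 4 libraries it was 1.29 (adjusted p = 0.0407). At 300 min CRK2 stood at 203, 300 and 260 CPM with flg22 against 20.5, 18.2 and 24.0 CPM with Mock, a difference of 3.45 ± 0.49 (adjusted p = 4.62e-07). CRK3 (AT1G70530), its neighbour on chromosome 1, was at 205, 288 and 176 CPM with flg22 at 300 min against 24.0, 23.4 and 20.2 CPM. Its groups did not overlap either and differed by 3.15 ± 0.47 (adjusted p = 9.57e-07). CRK28 (AT4G21400), which is known to associate with BAK1 and FLS2, was at 34.5, 43.1 and 25.8 CPM with flg22 at 300 min and at 1.36, 2.73 and 2.401 CPM with Mock. It rose by 3.85 ± 0.66 (adjusted p = 1.04e-05). CRK29 (AT4G21410), which overlaps CRK28 by 470 bases on the same strand, was at 187, 167 and 180 CPM with flg22 as early as 60 min, against 25.5, 1.38 and 39.1 CPM with Mock. The rise was 3.15 ± 0.64 (adjusted p = 0.00110), and without the 4 libraries it was 2.61 (adjusted p = 0.000661). By 300 min it was 5.46 ± 0.80 (adjusted p = 7.22e-07). CRK4 (AT3G45860), which in overexpression strengthens pattern-triggered responses and is also known to give cell death, did not pass with flg22 at any time. At 300 min it was at 4.93, 7.40 and 7.17 CPM with flg22 and at 10.4, 7.60 and 13.4 CPM with Mock (-0.83 ± 0.54, adjusted p = 0.223).

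CRK20, CRK7 and CRK31 rose with flg22 at 300 min from a Mock group with no count, and CRK45 from a low Mock level. CRK20 (AT4G23280), for which loss-of-function plants are known to let P. syringae grow less, had no count in the 3 Mock libraries at 300 min and was at 21.8, 36.0 and 41.3 CPM with flg22. Taking 3 counts in the Mock group as the floor, it was at least 97.7-fold higher (adjusted p = 1.34e-09). CRK7 (AT4G23150), known with CRK6 from the response to extracellular oxidative stress, was at 7.05, 8.17 and 6.89 CPM against 0, at least 22.23-fold higher (adjusted p = 9.15e-05). CRK31 (AT4G11470) was at 7.98, 3.57 and 7.17 CPM against 0, at least 18.9-fold higher (adjusted p = 3.75e-06). CRK45 (AT4G11890), also called ARCK1 and known to interact with CRK36 in responses to abscisic acid, rose in the first hour. At 60 min it was at 114, 95.02 and 62.8 CPM with flg22 against 2.20, 1.04 and 4.83 CPM with Mock, a difference of 5.24 ± 0.88 (adjusted p = 0.000128). At 180 min it was at 502, 703 and 419 CPM against 0.744, 9.93 and 14.4 CPM, and at 300 min at 435, 488 and 302 CPM against 1.09, 1.82 and 8.16 CPM. The groups stood far apart at these times, with differences of 6.14 ± 0.86 (adjusted p = 4.54e-07) and 6.76 ± 0.91 (adjusted p = 1.43e-07).

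CRK13, CRK5 and CRK19 rose with flg22 at 300 min. CRK13 (AT4G23210), known to give cell death and salicylate-dependent resistance when overexpressed, was at 309, 383 and 367 CPM with flg22 at 300 min against 5.73, 0.304 and 18.2 CPM with Mock (5.35 ± 0.96, adjusted p = 1.90e-05). CRK5 (AT4G23130), whose induced expression is known to give cell death, was at 47.2, 47.2 and 31.0 CPM against 1.64, 1.22 and 3.36 CPM (4.26 ± 0.90, adjusted p = 0.000186). CRK19 (AT4G23270), for which the same is known, was at 109, 146 and 98.1 CPM against 27.5, 5.47 and 17.3 CPM (2.63 ± 0.71, adjusted p = 0.00268). In each of the 3 genes the flg22 libraries lay above the Mock libraries.

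The levels of CRK10, CRK6 and CRK18 with flg22 followed different courses, which were not tested against each other. CRK10 (AT4G23180) was at 156, 131 and 141 CPM with flg22 at 60 min, at 21.1, 23.2 and 8.91 CPM at 120 min and at 31.0, 21.4 and 12.9 CPM at 300 min. Its rise passed in the first hour (2.31 ± 0.49, adjusted p = 0.00165) and again at 180 min (2.28 ± 0.52, adjusted p = 0.000998). It missed the threshold at 300 min (1.18 ± 0.52, adjusted p = 0.0642). Without the 4 libraries it passed at 120 and 300 min, by 1.55 (adjusted p = 0.0112) and 1.69 (adjusted p = 0.00579). CRK6 (AT4G23140) was at 18.9, 27.9 and 20.6 CPM with flg22 at 180 min, a rise of 4.65 ± 0.88 (adjusted p = 8.69e-05). At 300 min it was back at 4.46, 1.79 and 1.72 CPM (1.59 ± 1.08, adjusted p = 0.250). CRK18 (AT4G23260) was at 39.0, 26.7 and 26.5 CPM at 60 min and at 118, 158 and 94.99 CPM at 300 min, with an early rise of 1.16 ± 0.39 (adjusted p = 0.0460, and 1.03 with 0.161 without the 4 libraries) and a late one of 3.64 ± 0.41 (adjusted p = 3.08e-09). Between 180 and 300 min the change of the flg22 effect itself did not pass for any member in edgeR or DESeq2 (0 members each). At the same adjusted threshold 0.0477% of all genes rose and 0.0119% fell. At an unadjusted p under 0.05 there were 2 members.

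**Figure D3:**
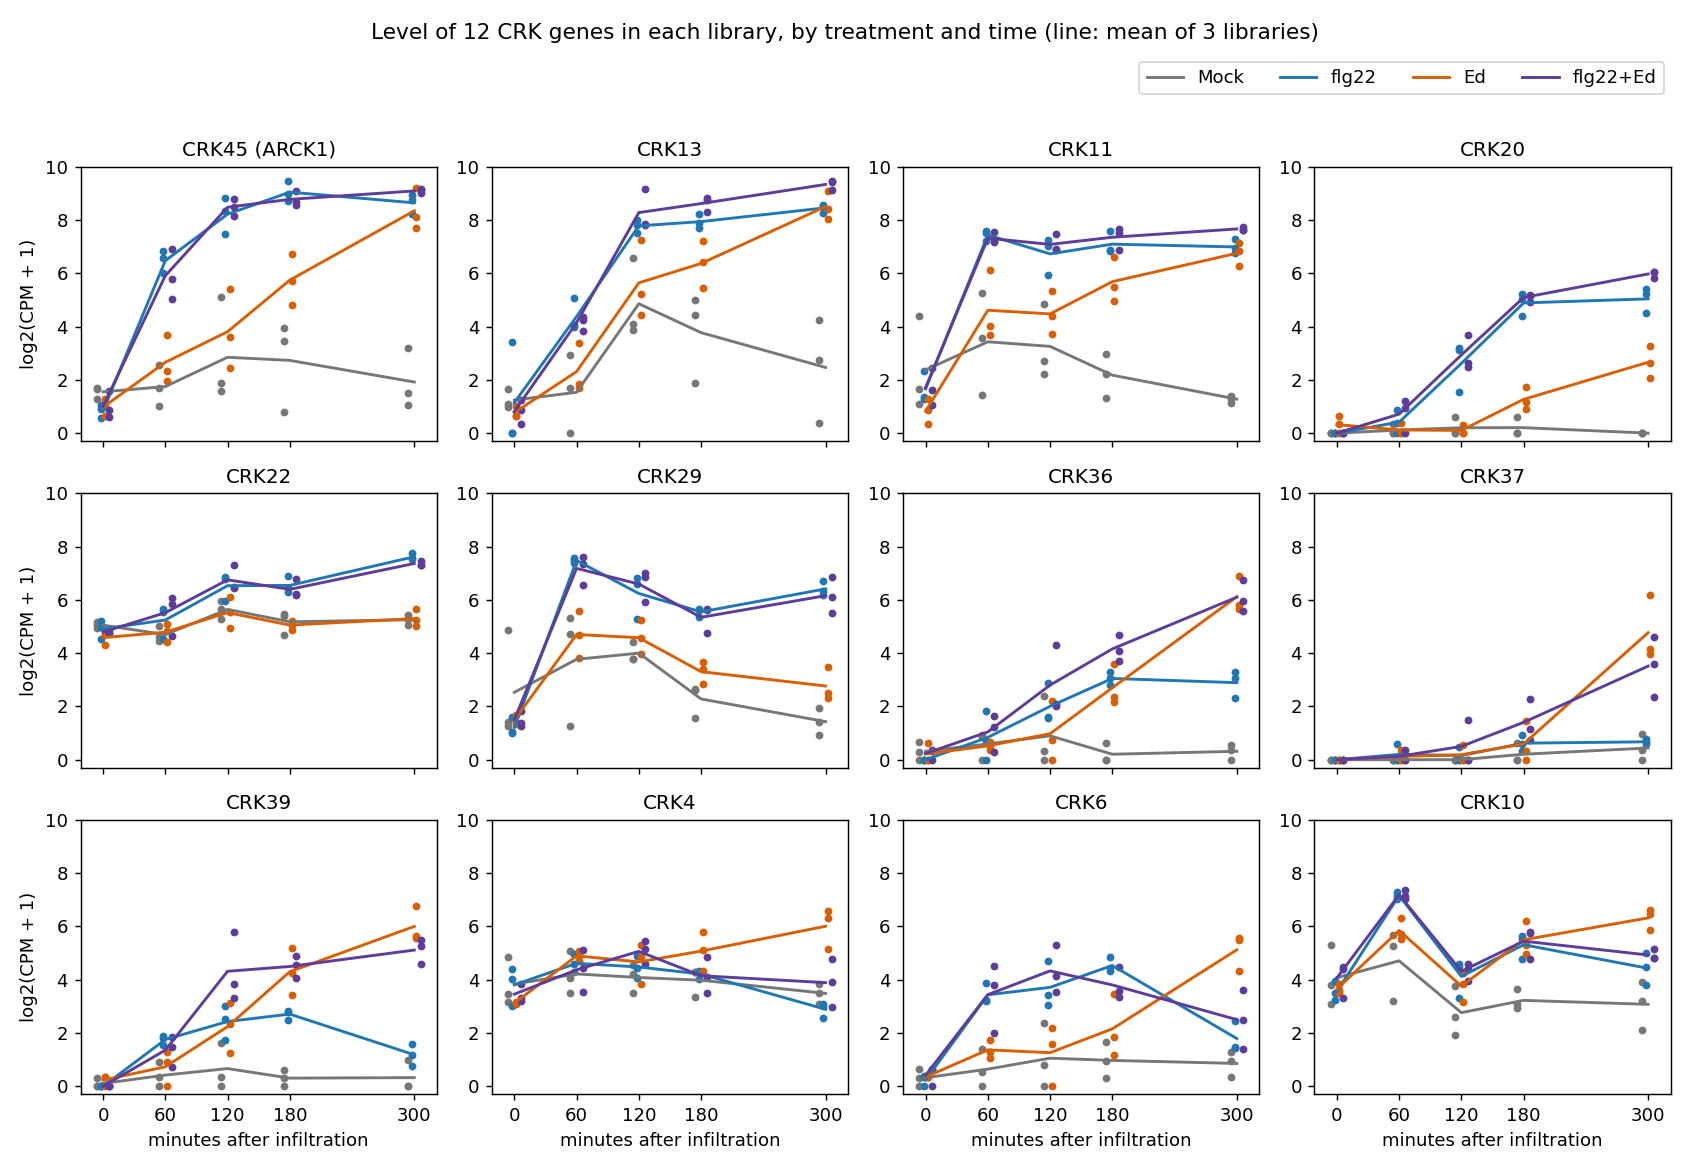
Level of 12 CRK genes as log2(CPM + 1) against minutes after infiltration; points are libraries and lines join the means of 3 libraries per treatment. CRK45, CRK13 and CRK11 are at 60.5 CPM or more in each flg22 library at 120 min, whereas CRK36, CRK37 and CRK39 have their highest mean with Ed at 300 min.

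Ed alone acted later. At 60 and 120 min 0 members passed in edgeR and 0 in DESeq2. At the adjusted threshold 0.00597% and 0.0835% of all genes rose and 0% fell. At an unadjusted p under 0.05 there were 1 and 2 members, with no share of all genes given at that threshold. At 180 min 8 members rose (4.03% of all genes rose and 0.00597% fell), namely CRK9, CRK10, CRK11, CRK12, CRK36, CRK39, CRK41 and CRK45, and this count fell to 3 without the Mock library of experiment 1 or 2 or the Ed library of experiment 1. At 300 min 24 members rose (14.7% of all genes) and 1 fell (9.46% of all genes fell). The median difference over tested members was 0.49 at 60 min, 1.45 at 180 min and 3.27 at 300 min, against -0.08 over all genes at 300 min. With genes without a Mock count put at their lower bound, the median at 300 min was 3.19. For the change of the Ed effect from 180 to 300 min, 2 members rose with DESeq2 and 0 in edgeR without the 4 libraries. In edgeR's full fit 10 members rose at an unadjusted p under 0.05. Past the adjusted threshold 0.0537% of all genes rose and 0.00597% fell. At 300 min 3 of 4 mesophyll genes, 2 of 3 epidermis genes and 3 of 5 phloem genes fell with Ed, and the summed mesophyll level was 23515 to 27526 CPM against 33440 to 37177 CPM with Mock. Their part in the CRK differences was not tested.

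CRK36 (AT4G04490), known to act with BIK1 in pattern-triggered immunity, was at 119, 49.4 and 54.9 CPM with Ed at 300 min and at 0, 0.304 and 0.480 CPM with Mock. Its groups were wide apart, with a ratio of 336 (95% counting interval 92.6 to 2776) and an adjusted p of 9.38e-08. CRK39 (AT4G04540), in the same gene array, was at 108, 47.0 and 49.4 CPM against 0, 0 and 0.960 CPM (ratio 308, interval 84.8 to 2545, adjusted p = 3.65e-08). CRK7 was at 60.0, 15.0 and 10.2 CPM with Ed against 0, at least 85.7-fold higher (adjusted p = 5.46e-07). CRK20 was at 8.61, 5.28 and 3.19 CPM against 0, at least 17.3-fold higher (adjusted p = 2.00e-05). CRK45 was at 596, 277 and 208 CPM with Ed at 300 min, a rise of 6.71 ± 0.91 (adjusted p = 3.37e-07). CRK13 was at 540, 261 and 339 CPM (5.59 ± 0.96, adjusted p = 2.02e-05), and its rise was 4.99 without the 4 libraries. In these genes the Ed library of experiment 1 was the highest of the 3. CRK2 rose less, to 90.9, 84.8 and 63.6 CPM (1.90 ± 0.47, adjusted p = 0.00215), and CRK28 rose to 32.5, 20.1 and 15.4 CPM (3.38 ± 0.67, adjusted p = 0.000146). CRK5 rose by 3.35 ± 0.91 (adjusted p = 0.00490) and CRK19 by 2.08 ± 0.70 (adjusted p = 0.0249).

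CRK42 fell with Ed at 300 min. It was at 6.39, 11.1 and 17.7 CPM with Ed and at 17.7, 54.1 and 18.7 CPM with Mock, so that the groups barely separated. The difference was -1.38 ± 0.38 (adjusted p = 0.00595, lower in 3 of 3 experiments). The call ended without the Mock library of experiment 2, one of those that went against their labels (-0.70, adjusted p = 0.239), without the Ed library of experiment 1 (-1.09, adjusted p = 0.0805) and without the 4 libraries together (-0.70, adjusted p = 0.115).

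With flg22 and Ed in the same solution, CRK genes rose from 60 min on. Against Mock, 14 members rose at 60 min (4.75% higher, 2.08% lower in the whole table), 23 at 120 min (9.97% higher, 4.98% lower), 26 at 180 min (18% higher, 14.5% lower) and 26 at 300 min (27.9% higher, 30.5% lower), and none fell. The median difference at 300 min was 4.02, against -0.08 over all genes. For the change of the flg22+Ed effect from 180 to 300 min, 0 members passed with DESeq2. In edgeR 3 members rose at an unadjusted p under 0.05. Past edgeR's adjusted threshold 1.34% of all genes rose and 4.96% fell. At 60 min 4 rose without the Mock library of experiment 2, 9 without the flg22+Ed library of experiment 2 and 8 without the 4 libraries, where CRK2, CRK6, CRK9, CRK12, CRK22 and CRK31 missed the threshold, and at 120 min 14 rose without the flg22+Ed library of experiment 3. All 4 mesophyll genes fell at 300 min, to a sum of 8247 to 11508 CPM, as did 2 of 3 epidermis genes, 2 of 5 phloem genes and 1 of 4 guard cell genes, and their part in the CRK differences was not tested. CRK20 was at 65.3, 65.0 and 56.2 CPM against 0 with Mock at 300 min, at least 187-fold higher (adjusted p = 1.56e-11). CRK7 was at 46.1, 16.8 and 55.3 CPM, at least 127-fold higher (adjusted p = 1.79e-08). CRK36 was at 60.6, 47.4 and 108 CPM (ratio 332, interval 91.7 to 2750, adjusted p = 1.20e-08). CRK31 was at 9.09, 9.40 and 7.46 CPM, at least 25.9-fold higher (adjusted p = 1.63e-07). CRK13 was at 556, 693 and 702 CPM, above each flg22 library and each Ed library of that time, although its difference from flg22 alone did not pass.

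Against flg22 alone, adding Ed raised 6 members at 300 min (6.81% of all genes rose) and lowered none (7.21% of all genes fell), with 8 members higher and 2 lower at an unadjusted p under 0.05 and 6 higher and 0 lower with DESeq2. Without the 4 libraries 7 were higher, CRK4 among them (1.35, adjusted p = 0.0375), and 2 lower, namely CRK40 (-1.16, adjusted p = 0.0469) and CRK42 (-0.999, adjusted p = 0.00641). CRK40 and CRK42 were also lower with the replicate block (adjusted p = 0.0292 and 0.0239). At 60, 120 and 180 min 0 members passed with edgeR or DESeq2, where 0%, 0.00597% and 0.483% of all genes rose past the adjusted threshold. Of the members, 0, 1 and 1 had an unadjusted p under 0.05, a threshold for which no share of all genes is given. The 6 were CRK7, CRK9, CRK36, CRK37, CRK38 and CRK39. CRK39 was at 23.1, 43.7 and 37.6 CPM with flg22+Ed and at 0.705, 1.28 and 2.01 CPM with flg22, a difference of 4.76 ± 0.71 (adjusted p = 9.11e-06). CRK36 differed by 3.49 ± 0.65 (adjusted p = 0.000216) and CRK7 by 2.50 ± 0.57 (adjusted p = 0.00257).

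Ed and flg22, compared with each other, split the family. This comparison was added after the levels had been seen. At 180 min 1 member was higher with Ed (2.35% of all genes) and 13 were higher with flg22 (7.3%). At 300 min 7 were higher with Ed (9.91% of all genes), namely CRK4, CRK6, CRK7, CRK10, CRK36, CRK37 and CRK39, and 8 were higher with flg22 (7.5%), namely CRK2, CRK18, CRK20, CRK21, CRK22, CRK29, CRK34 and CRK42. In these 15 genes the 3 libraries of one treatment all lay above the 3 of the other. Genes that passed on these libraries tend to separate so, and the share over all genes was not counted.

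On the Ed side, CRK37 (AT4G04500) was at 72.2, 14.5 and 16.8 CPM with Ed at 300 min and at 0.705, 0.511 and 0.574 CPM with flg22, close to its Mock level. The difference was 5.89 ± 0.87 (adjusted p = 6.30e-06). CRK39 was at 108, 47.0 and 49.4 CPM with Ed and under 2.1 CPM with flg22 (5.80 ± 0.71, adjusted p = 7.86e-08). CRK36 was at 3.99, 8.68 and 7.46 CPM with flg22, so that Ed was higher by 3.60 ± 0.65 (adjusted p = 6.78e-05). These 3 genes lie in an array of 5 CRK genes on chromosome 4, from CRK36 to CRK40. The other members of that array did not pass. CRK38 (AT4G04510) was at 14.7, 11.4 and 7.55 CPM with Ed and at 11.51, 16.1 and 11.8 CPM with flg22 (-0.10 ± 0.40, adjusted p = 0.909), and CRK40 was at 60.0, 89.0 and 95.5 CPM against 75.1, 47.5 and 45.1 CPM (0.66 ± 0.42, adjusted p = 0.303). CRK4, which lies alone on chromosome 3, was at 93.6, 78.9 and 34.3 CPM with Ed against 4.93, 7.40 and 7.17 CPM with flg22 (3.53 ± 0.52, adjusted p = 1.86e-06). CRK6 was at 47.0, 43.6 and 18.9 CPM with Ed against 4.46, 1.79 and 1.72 CPM (3.86 ± 0.73, adjusted p = 0.000114), although at 180 min it had been higher with flg22 (-2.37 ± 0.69, adjusted p = 0.0194).

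On the flg22 side, CRK22 (AT4G23300) was at 190, 217 and 182 CPM with flg22 at 300 min and at 37.0, 31.2 and 49.1 CPM with Ed, where Mock was at 37.9, 32.2 and 42.3 CPM. Ed stood below flg22 (-2.20 ± 0.30, adjusted p = 4.23e-07), and its difference from Mock did not pass (0.03 ± 0.30, adjusted p = 0.964). CRK29 was at 71.9, 103 and 80.6 CPM with flg22 and at 10.3, 3.96 and 4.65 CPM with Ed (-3.62 ± 0.68, adjusted p = 9.52e-05). CRK20 differed by -2.40 ± 0.46 (adjusted p = 0.000200) and CRK2 by -1.55 ± 0.45 (adjusted p = 0.0127). CRK21 stood at 156, 173 and 117 CPM with flg22 and at 33.6, 39.3 and 39.2 CPM with Ed (-1.87 ± 0.31, adjusted p = 1.76e-05). CRK45, CRK13 and CRK11 did not pass between Ed and flg22 at 300 min, with differences of -0.05 ± 0.67, 0.24 ± 0.76 and -0.08 ± 0.64 and libraries that overlapped.

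**Figure D4:**
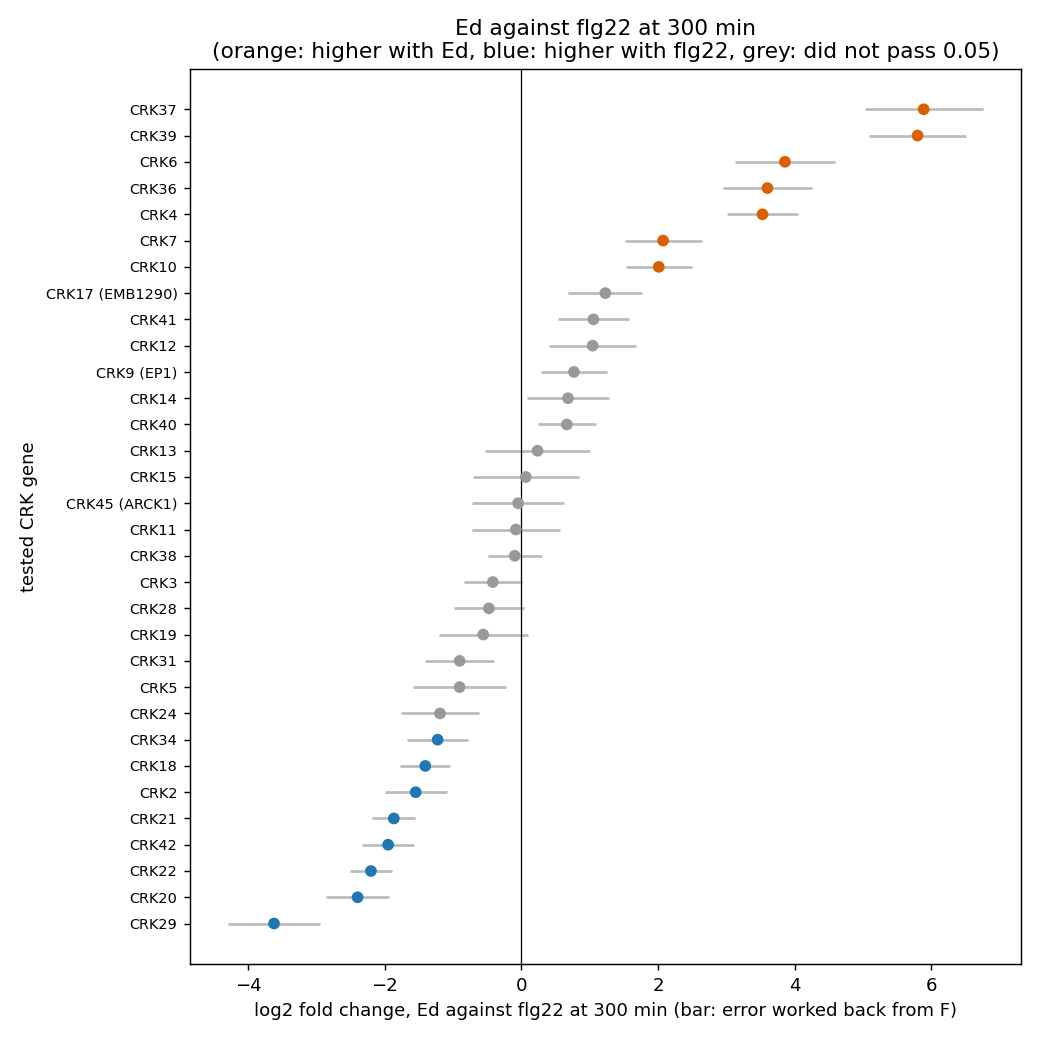
Log2 fold change of each tested CRK gene, Ed against flg22 at 300 min, with the error worked back from F; orange genes were higher with Ed, blue genes higher with flg22 and grey genes did not pass. CRK37 (5.89) and CRK39 (5.80) stand at one end and CRK29 (-3.62) at the other.

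Against Ed alone, adding flg22 raised 6 members at 60 min (1.55% higher, 0.227% lower in the whole table), 16 at 120 min (6.1% higher, 1.13% lower), 13 at 180 min (9.69% higher, 5.66% lower) and 11 at 300 min (14.6%), and lowered 5 at 300 min (18.8%). The count at 60 min was 0 without the Ed library of experiment 1 or 2, 1 without the flg22+Ed library of experiment 2 and 11 without the 4 libraries. At 120 min it was 8 without the Ed library of experiment 2 and 9 without the flg22+Ed library of experiment 3. CRK29 (3.52 ± 0.67, adjusted p = 7.04e-05) and CRK20 (3.39 ± 0.46, adjusted p = 6.01e-07) had the largest rises at 300 min. The 5 that fell were CRK4, CRK6, CRK10, CRK40 and CRK41.

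CRK6 was at 4.66, 1.63 and 11.2 CPM with flg22+Ed at 300 min, below its 3 Ed libraries (47.0, 43.6 and 18.9 CPM). The difference was -2.66 ± 0.67 (adjusted p = 0.00195, lower in 3 of 3 experiments). CRK4 was at 13.98, 6.95 and 26.4 CPM with flg22+Ed against 93.6, 78.9 and 34.3 CPM with Ed (-2.16 ± 0.48, adjusted p = 0.000501). CRK40 was at 18.9, 27.0 and 27.5 CPM against 60.0, 89.0 and 95.5 CPM (-1.80 ± 0.44, adjusted p = 0.00148). CRK10 was at 27.3, 27.0 and 34.7 CPM against 86.7, 98.5 and 57.5 CPM (-1.499 ± 0.48, adjusted p = 0.0133), a call that ended without the Ed library of experiment 2. CRK41 (AT4G00970) was at 18.9, 12.7 and 19.8 CPM against 34.5, 58.3 and 38.9 CPM (-1.39 ± 0.53, adjusted p = 0.0365). Its call ended without any 1 of 5 of the 6 libraries compared, the exception being the Ed library of experiment 1. In each of the 5 genes the flg22+Ed libraries all lay below the Ed libraries, which their choice by the same libraries favours. The share over all genes was not counted.

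The interaction asks whether the log2 effect of flg22, which without Ed includes the difference in ethanol, was the same with and without Ed. At 300 min it passed for 10 members, all negative, against 1.43% of all genes with a negative and 0.0835% with a positive interaction. The members were CRK7, CRK10, CRK11, CRK13, CRK14, CRK18, CRK20, CRK31, CRK41 and CRK45, and the sign was negative in 3 of 3 experiments for each. The median over tested members was -2.52, against -0.12 over all genes. At 60, 120 and 180 min 0 members passed with edgeR or DESeq2, and at most 0.00597% of all genes passed the adjusted threshold. At an unadjusted p under 0.05 there were 0, 0 and 11 members. The share of all genes at that looser threshold is not given.

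CRK45 showed it most plainly. Its flg22 effect was 6.76 without Ed and 0.55 with Ed, an interaction of -6.21 ± 1.09 (adjusted p = 0.00119), and its level with flg22+Ed (556, 567 and 516 CPM) overlapped its level with Ed alone. CRK11 (AT4G23190) was at 122, 154 and 107 CPM with flg22, 140, 115 and 76.4 CPM with Ed and 198, 211 and 198 CPM with flg22+Ed, against 1.64, 1.22 and 1.44 CPM with Mock. Its interaction was -5.46 ± 1.10 (adjusted p = 0.00404). CRK13 had -4.64 ± 1.18 (adjusted p = 0.0296). For CRK7, CRK20 and CRK31, with no Mock count at 300 min, the fitted size (-7.10, -6.30 and -5.85) depends on the prior count. In CRK20 flg22 gave at least a 97.7-fold rise without Ed and a log2 rise of 3.39 with it. CRK10 (-2.68 ± 0.70, adjusted p = 0.0357) and CRK41 (-2.96 ± 0.78, adjusted p = 0.0357) also fell past the threshold when flg22 was added to Ed, while without Ed the flg22 effect was 1.18 in CRK10, which did not pass, and 1.57 in CRK41, which did.

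A negative interaction on the log2 scale need not be so in CPM. The level of CRK20 with flg22+Ed exceeded the sum of the separate gains by 34.8, 23.7 and 11.7 CPM in the 3 experiments. That of CRK45 differed from the sum by -474, -196 and 14.2 CPM, and that of CRK13 by -288, 48.8 and 13.7 CPM, so these genes had no common sign. CRK10 lay below the sum in each experiment (-82.2, -79.0 and -32.3 CPM), as did CRK41 (-36.7, -64.4 and -27.3 CPM). No test was made on this scale.

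**Figure D5:**
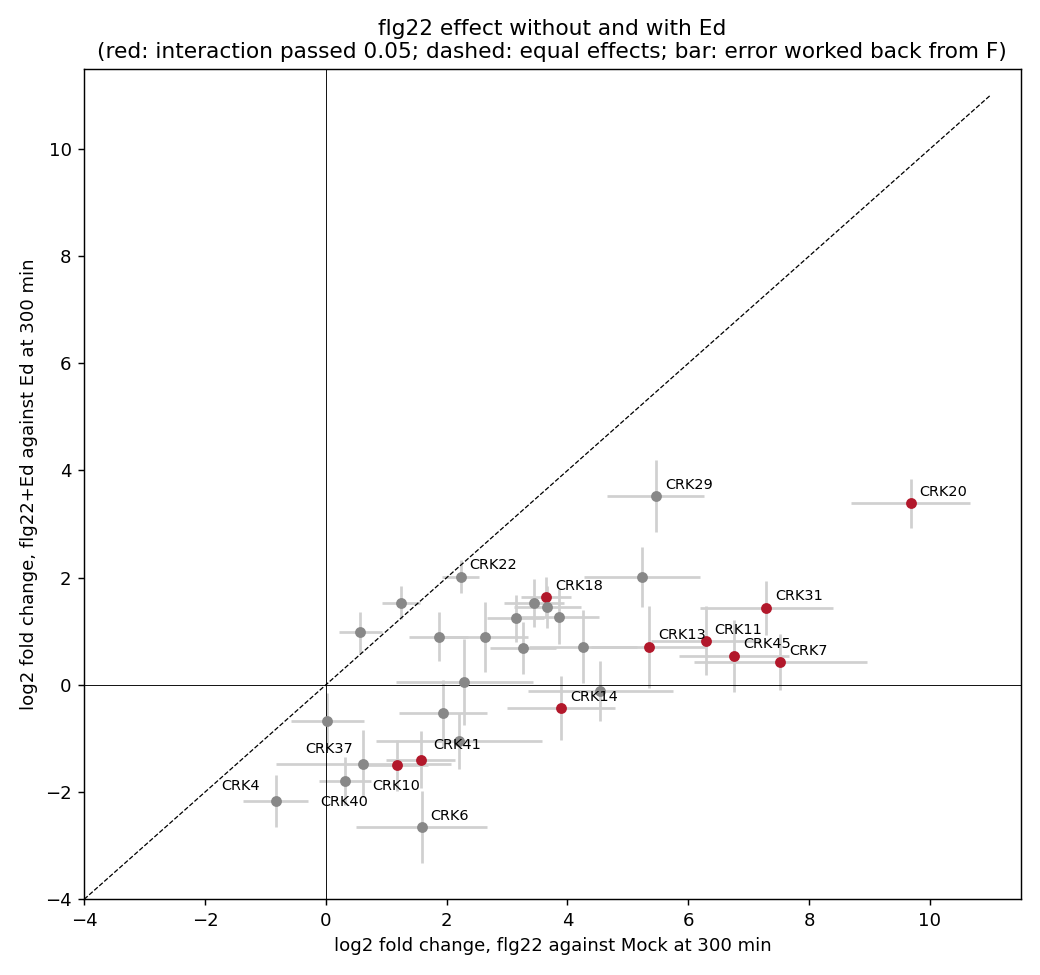
Log2 effect of flg22 without Ed (horizontal) and with Ed (vertical) at 300 min for the 32 tested CRK genes, with errors worked back from F; red genes passed the interaction test and the dashed line marks equal effects. The 10 red genes lie below the line, and CRK10, CRK14 and CRK41 lie below 0 on the vertical axis.

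The interaction count rested on few libraries. It was 2 without the Mock library of experiment 1, 3 without that of experiment 2, 3 without the Ed library of experiment 1, 6 without the flg22 library of experiment 2, and 5, 5 and 6 without the flg22+Ed library of experiments 1, 2 and 3. It was 6 without the 4 libraries that went against their labels, with CRK7, CRK18, CRK20 and CRK31 no longer past the threshold, and 13 with DESeq2. CRK45 and CRK11 passed whichever single library was left out, and missed the threshold without all of experiment 1 or of experiment 2.

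Some members differed between Mock leaves and untouched leaves. Untouched leaves were all taken at 0 min, so infiltration, ethanol and time of day cannot be told apart here. Against the 12 untouched libraries, Mock leaves had 10 members higher at 60 min (8.73% of all genes higher and 0.728% lower), 11 higher and 1 lower at 120 min (13.7% and 6.92%), 3 higher and 1 lower at 180 min (8.75% and 5.58%) and 0 at 300 min (4.49% and 0.453%), where 4 members were higher and 1 lower at an unadjusted p under 0.05 DESeq2 gave 1 each way and the replicate block gave 1 (CRK42, -0.85, adjusted p = 0.0452). CRK29 in Mock leaves at 60 min was at 25.5, 1.38 and 39.1 CPM, against a median of 1.65 CPM in untouched leaves (range 0.996 to 28.4), a rise of 3.02 ± 0.50 (adjusted p = 8.34e-05). The low library was the one labelled Mock 60 min of experiment 2, and the high untouched one was labelled Mock 0 min of experiment 2. Without the 4 libraries 15 members were higher and 1 lower at 60 min, 7 higher and 2 lower at 180 min, and 4 higher and 2 lower at 300 min. Shares of all genes in that fit are not given, so these changes in count cannot be read as particular to CRK genes. Without the Mock library of experiment 1 or 3 the count at 60 min was 4 or 2, and at 120 min it was 4 without the Mock library of experiment 3. At 180 min it was 1 without the Mock library of experiment 2 or 3 and 2 without the untouched flg22-arm library of experiment 3. At 300 min it was 2 without the library labelled Mock 0 min, 3 without that labelled Mock 300 min and 3 without that labelled flg22 0 min of experiment 2. CRK13 at 120 min, at 13.7, 16.3 and 94.6 CPM, was above its untouched median of 0.895 CPM (4.81 ± 0.65, adjusted p = 6.32e-07). CRK10 was lower at 120 min (-1.30 ± 0.47, adjusted p = 0.0421) and so was CRK42 at 180 min (-0.94 ± 0.30, adjusted p = 0.0302), in 3 of 3 experiments each.

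Of 6 genes listed as CRK partners, 5 rose with flg22 at 300 min (19.2% of all genes rose), 4 with Ed (14.7%) and 5 with flg22+Ed (27.9%), and none fell. RBOHF did not pass in any of these comparisons. BIK1, the cytoplasmic kinase that links receptors to the oxidative burst, had the largest rise with flg22 (4.26 ± 0.72, adjusted p = 8.57e-06). RBOHD, the NADPH oxidase of the burst, had the largest with Ed (3.58 ± 0.56, adjusted p = 4.69e-06), and FLS2 did not pass with Ed (1.67 ± 0.91, adjusted p = 0.182). Of the 4 W-box binding factors listed, all 4 rose with flg22, with Ed and with flg22+Ed at 300 min, against the same shares of all genes. WRKY60 had the largest rise with flg22 (5.97 ± 0.54, adjusted p = 1.21e-11) and was the factor whose interaction passed (-3.36 ± 0.66, adjusted p = 0.00307). WRKY40 had the largest with Ed (5.89 ± 0.97, adjusted p = 9.01e-06).

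The plasmodesmata-located proteins (PDLP), which carry the same outer domain without a kinase, are close relatives of the CRK proteins. Of 8 listed and 7 tested, 0 rose and 2 fell with flg22 at 300 min (19.2% of all genes rose and 20.9% fell), 1 rose with Ed (14.7% rose and 9.46% fell), and 1 rose and 2 fell with flg22+Ed (27.9% rose and 30.5% fell). The share of PDLP genes that fell with flg22 and with flg22+Ed was near that of all genes. PDLP5, known to close plasmodesmata in defence, was at 65.0, 26.1 and 31.1 CPM with Ed at 300 min and at 2.45, 0.912 and 2.401 CPM with Mock (4.38 ± 0.49, adjusted p = 1.34e-08). With flg22 it was at 2.35, 3.83 and 5.74 CPM, which did not pass (0.89 ± 0.54, adjusted p = 0.195). PDLP2 fell with flg22+Ed (-4.88 ± 0.84, adjusted p = 3.69e-06), and PDLP3 fell as well (-4.11 ± 0.63, adjusted p = 3.80e-07).

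Many of these genes lie side by side, and 3′ reads of close copies can be shared. CRK5 to CRK24, 20 genes, form 1 array on chromosome 4 with 1 other coding gene between them. Members of it are found on each side of the split between Ed and flg22 at 300 min. CRK6, CRK7 and CRK10 were on the Ed side and CRK20, CRK21 and CRK22 on the other. The sides depend on time, since at 180 min CRK6 (-2.37) and CRK7 (-4.47, adjusted p = 0.000271 by edgeR's test) were higher with flg22. CRK10 and CRK11 overlap by 32 bases at their 3′ ends on opposite strands, CRK16 and CRK17 by 1190 bases on 1 strand, CRK45 overlaps AT4G11900 by 40 bases, and CRK42 overlaps AT5G40382 by 130 bases. Over the last 300 bases of the transcripts, CRK39 and CRK40 shared 94.6% identity over 56 aligned bases, CRK7 and the untested CRK8 73.7% over 217 bases, and CRK16 and CRK24 79% over 214 bases. CRK16 and CRK21 shared 83.2% over 137 bases, CRK20 and CRK23 81.7% over 109 bases, and CRK14 and CRK15 71.5% over 186 bases. Other pairs also aligned. CRK29 overlaps AT4G03065 by 305 bases on the same strand, besides CRK28. The sources used here do not give whether counting used strand, and values of these genes are less certain.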

How the data were processed

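The authors made Smart-3SEQ libraries with a 5-base molecular identifier and trimmed 8 bases, per the labels' protocols. The submitters' processing notes name bcl2fastq 2.17.1.14, STAR 2.4.2a and TAIR10. Counting tool, annotation, strand and identifier collapsing were not given in the sources used here. The deposited values are raw read counts per gene, not normalized by the authors.

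The 60 libraries (1.46 to 4.67 M counts) were fitted together with edgeR 4.0.16 (R 4.3.3, limma 3.58.1): TMM scaling (factors 0.803 to 1.15), filterByExpr, 1 mean per group, quasi-likelihood F tests with 40 residual degrees of freedom, and, for each of 33 comparisons, Benjamini-Hochberg adjustment across the 16763 genes, with 0.05 as the threshold. Code was tested on simulated data. Alternatives were a replicate block, other scalings and filters, DESeq2 1.42.0 and left-out libraries. Fits without 1 library kept the dispersion trend of the full fit. Leaving out the 4 libraries that went against their labels and comparing Ed with flg22 were chosen after the data were seen.

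Replicate numbers name the independent experiments, per the series' design text, and so pair the libraries. Deviations of same-numbered libraries correlated over 0.1 in 23 of 36 pairs (median 0.173). The fit without a block was kept as planned, with the replicate block as an alternative, which kept all 325 calls among members and added others. Fold bounds use a floor of 3 counts over the group, and ratios against 1 to 3 counts have exact 95% intervals that cover counting error only.

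The rule for members used no measured value, but the gene family and the lists were chosen with earlier results of these data known. Values were to be given for the 4 members of largest change per treatment and for the interaction at 180 or 300 min with a group mean of at least 5 CPM, for members that fell, and for CRK2, CRK4, CRK5, CRK6, CRK7, CRK13, CRK19, CRK20, CRK28, CRK36 and CRK45. Other CRK genes named were chosen after their values were seen. Promoters came from RefSeq on TAIR10.1, joined to counts by locus identifier only. Of 30 other DUF26 genes listed, 0 were tested.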

Additional observations from a re-analysis of the deposited data

Results flagged for a closer look

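For 10 CRK genes the effect of flg22 at 300 min differed between leaves with and without Ed by edgeR's interaction test, on the log2 scale and in all 3 experiments. The differences were -7.10 in CRK7, -6.30 in CRK20, -6.21 in CRK45, -5.85 in CRK31, -5.46 in CRK11, -4.64 in CRK13, -4.33 in CRK14, -2.96 in CRK41, -2.68 in CRK10 and -2.00 in CRK18. The sizes for CRK7, CRK20 and CRK31 depend on the prior count, because their Mock libraries held no count. Their cause was not tested.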

How the results depend on the processing

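Of 325 member differences past the threshold, the replicate block ended 0, RLE scaling 1, library sizes alone 8, no filter 6 and DESeq2 7, and the stricter filter ended 0 of 297. Leaving out the 4 libraries that went against their labels ended 18, experiment 1 alone 135, experiment 2 93 of 322 and experiment 3 67, and without experiment 3 CRK9 (EP1) reversed in Mock at 120 min, from 1.26 to -0.09. Without the 4 libraries the counts at 60 min became 9 (flg22), 8 (flg22+Ed), 11 (flg22+Ed against Ed) and 16 (Mock against untouched), the interaction gave 2 at 180 min and 6 at 300 min, and Mock against untouched gave 9 at 180 min and 6 at 300 min. DESeq2 gave 2 for the change of the Ed effect and 2 for Mock at 300 min, where the replicate block, library sizes alone and the filter of 10 CPM gave 1 each. With 1 library or 1 experiment left out, counts at 60, 120, 180 and 300 min ranged over 1 to 15, 2 to 22, 20 to 24 and 21 to 24 for flg22, and over 0, 0, 0 to 8 and 19 to 27 for Ed. They ranged over 1 to 15, 12 to 24, 22 to 26 and 23 to 27 for flg22+Ed, over 0, 0, 0 and 3 to 7 for flg22+Ed against flg22, and over 0 to 6, 8 to 19, 8 to 17 and 9 to 16 for flg22+Ed against Ed. For the interaction they were 0, 0, 0 to 2 and 0 to 14, and for Mock against untouched 0 to 15, 2 to 13, 1 to 6 and 0 to 4. Ed against flg22 gave 8 to 14 at 180 min and 12 to 15 at 300 min, and the change from 180 to 300 min gave 0 to 1 for Ed and 0 for the others. Fewer libraries also leave less power, and the cause of each change was not tested. Library sizes alone moved the median of all genes by over 0.1, for example from -0.07 to -0.19 for flg22 at 60 min and from -0.05 to 0.10 at 300 min. A level under 0.642 to 2.06 CPM rests on fewer than 3 counts in a library.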
